A study of Homo sapiens with 23 samples.

Results

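The genes described here are 32 genes of protein folding and the unfolded protein response in the endoplasmic reticulum (ER), chosen by name: ER chaperones, protein disulfide isomerases, stress sensors, degradation factors and collagen-folding proteins. They were chosen with earlier results of these data known, so the set is not independent of the data. Of the 32 listed genes, 30 had an annotated probe and 29 were tested, among 12994 genes tested in all. ERN1, the stress sensor that splices XBP1 mRNA, and HERPUD1, a degradation factor, had no annotated probe. The single probe of PDIA3, a disulfide isomerase for glycoproteins, was detected (detection p under 0.05) on 1 array and fell outside the requirement of 3 arrays. The member probes nearest to the requirement among those that met it were the second probe of SYVN1, detected on 14 arrays, and the probe of CREB3L1, detected on 16.

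The cells were CCL-75, an established line of human lung fibroblasts, measured on 23 single-colour Illumina bead arrays. Control cells (4 arrays) received neither cytokine nor antibody, and IL13 cells (4 arrays) received IL-13 for 20 h. All 4 other groups were pretreated with TNF and IL-17 for 72 h: Pre_only (3 arrays) with nothing further, Pre_IL13 (4) with IL-13 afterwards, Pre_Ab_only (4) with a neutralising antibody to IL-13Ra2 in the last 1 h, and Pre_Ab_IL13 (4) with the antibody and then IL-13. The labels do not state whether cells without IL-13 were washed and kept for the same further 20 h, so the IL-13 differences may hold that handling too. Each group holds passages 6 and 8, with replicates A and B in each, so that P6-A is replicate A of passage 6. The labels call A and B technical replicates, while the design text calls them independent experiments. Pre_only has 1 array of passage 8, P8-B. The line is a single cell source, and every passage was run on its own beadchip, which makes the effects of passage and of beadchip a pair that cannot be told apart. On these bulk arrays fewer cells of a kind and less RNA per cell cannot be told apart.

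The ER folds and modifies proteins bound for secretion, and lung fibroblasts send large amounts of collagen through it. When unfolded proteins accumulate, the sensors ERN1, ATF6 and EIF2AK3 start the unfolded protein response. Spliced XBP1 and cleaved ATF6 then raise transcription of chaperones and of the degradation machinery, while EIF2AK3 slows translation. The promoters of many of these genes carry ER stress response elements, bound by ATF6 or XBP1 together with the CCAAT factor NF-Y.

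The promoters of 4 genes are printed as examples of both forms of such elements in members described below, not as a complete set. The ER stress response element (ERSE, CCAAT, any 9 bases, CCACG, on either strand) was found in the windows of 6 of the 29 members matched to RefSeq promoters, namely HSPA5, HSP90B1, CALR, CANX, CRELD2 and XBP1. It was found in 27 of all 35116 promoters of the same length, or 0.0769%. The second form (ERSE-II, ATTGG, any 1 base, CCACG, on either strand) was found in HYOU1, SDF2L1 and HERPUD1, against 19 of all promoters or 0.0541%. TGACGTG, the core of the XBP1 element, was found in 1 member, HYOU1, where it overlaps an ERSE-II, and in 1.97% of all promoters. TGATGNAA, a C/EBP-ATF core, was found in 1 member, HERPUD1, and in 3.62% of all promoters. CCACG alone, which the ERSE forms contain, was found in 21 members and in 38.1% of all promoters. A match describes the letters of these windows only. Each window runs from 250 bases before to 50 bases after the annotated start (RefSeq, GRCh38.p14), 5′ to 3′ on the gene's strand, with the ERSE or ERSE-II in capitals: HSPA5 chr9:125241294-125241593 (minus strand, element at -66 to -48 from the start), CRELD2 chr22:49918384-49918683 (plus strand, -80 to -62), XBP1 chr22:28800520-28800819 (minus strand, -52 to -34) and SDF2L1 chr22:21642052-21642351 (plus strand, -188 to -178).
HSPA5: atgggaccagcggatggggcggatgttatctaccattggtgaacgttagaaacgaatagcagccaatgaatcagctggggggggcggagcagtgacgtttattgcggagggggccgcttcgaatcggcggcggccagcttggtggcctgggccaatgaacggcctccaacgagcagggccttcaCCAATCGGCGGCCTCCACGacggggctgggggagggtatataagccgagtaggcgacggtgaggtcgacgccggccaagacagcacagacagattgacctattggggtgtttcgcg
CRELD2: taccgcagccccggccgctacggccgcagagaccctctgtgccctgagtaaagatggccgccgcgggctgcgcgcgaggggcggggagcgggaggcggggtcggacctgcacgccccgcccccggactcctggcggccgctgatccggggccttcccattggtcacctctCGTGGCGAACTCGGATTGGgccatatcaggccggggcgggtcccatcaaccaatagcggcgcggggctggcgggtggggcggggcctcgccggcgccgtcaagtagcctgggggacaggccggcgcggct
XBP1: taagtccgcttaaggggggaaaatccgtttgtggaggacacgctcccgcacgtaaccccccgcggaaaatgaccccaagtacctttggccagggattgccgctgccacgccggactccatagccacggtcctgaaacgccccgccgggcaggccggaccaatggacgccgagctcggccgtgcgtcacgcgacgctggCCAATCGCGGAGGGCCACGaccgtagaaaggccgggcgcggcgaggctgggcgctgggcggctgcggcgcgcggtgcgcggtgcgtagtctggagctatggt
SDF2L1: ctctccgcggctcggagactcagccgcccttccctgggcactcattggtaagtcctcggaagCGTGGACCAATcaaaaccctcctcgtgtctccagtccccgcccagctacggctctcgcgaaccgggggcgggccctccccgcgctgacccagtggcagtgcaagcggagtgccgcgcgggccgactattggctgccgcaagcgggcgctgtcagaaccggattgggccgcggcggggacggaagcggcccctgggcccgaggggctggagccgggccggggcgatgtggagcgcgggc

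Levels are log2 intensities after background correction and quantile normalisation, a change is a difference of such levels with its standard error (SE), and a gene was called at a Benjamini-Hochberg adjusted p under 0.05 over all 12994 genes in limma. Between 17811 and 20162 probes were detected per array. As a check of the treatments, CCL26, a chemokine gene known as an IL-13 target, stood at 5.51 ± 0.14 in Control and 10.53 ± 0.11 in IL13 (SD, n = 4 each). IL13RA2, the decoy receptor, stood at 7.56 ± 0.43 in Control (SD, n = 4) and 11.40 ± 0.29 in Pre_only (SD, n = 3). All 10 fibroblast markers tested were detected in every group, with a summed log2 level of 15.56 to 15.79 in Control and 15.76 to 15.99 in Pre_only. Their levels were not all alike between groups. Means in Control and Pre_Ab_only were 10.75 and 12.11 for COL3A1, 12.40 and 12.92 for COL1A2 and 12.79 and 13.01 for COL1A1. They were 11.30 and 11.90 for LUM, 9.33 and 9.75 for FAP, 10.56 and 10.76 for PDGFRA, 13.80 and 13.76 for DCN and 9.98 and 9.85 for PDGFRB. In Pre_only minus Control all 3 smooth muscle markers tested were lower, with log2 changes of -2.22 for CNN1, -2.07 for MYH11 and -1.11 for LMOD1, while DES was not tested, and with a summed log2 level of 10.6 to 12.2 in Control and 9.21 to 9.78 in Pre_only. CD14 and CD68 of 3 leukocyte markers rose (1.19 and 1.10), LYZ did not pass the test, and the summed level was 10.3 to 10.5 in Control and 11.4 to 11.5 in Pre_only. PTPRC and CD3E, which mark leukocytes and T cells, were not tested, and the part of these markers in the results below was not tested. The arrays IL13 P6-A and P6-B had a larger bead-to-bead error for the member probes (8.88% and 6.75% of the mean) than the other 21 arrays (3.17% to 4.29%), so member calls that change without both are named. Of endothelial markers TEK (0.42) was higher and VWF (-0.54) lower in Pre_only minus Control, and PECAM1, CDH5 and KDR were not tested. Of epithelial markers only MUC1 was tested, and it was not called there.

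With TNF and IL-17 pretreatment, the prolyl isomerase FKBP11, the disulfide isomerase P4HB, the collagen chaperone SERPINH1 and the degradation factor EDEM2 rose, while most of the ER genes were not called. In Pre_only minus Control, 6 members rose and 1 fell of 29, where 24.8% of all genes were called (12% higher and 12.8% lower). In Pre_IL13 minus IL13, which shares no array with the first comparison, 5 rose and 2 fell, where 27.7% of all genes were called (14% higher and 13.8% lower). The members' share called was near that of all genes in each comparison, and their median change was 0.07 and 0.10, against -0.01 and 0.00 over all genes. Those 4 rose in both comparisons, and SDF2L1 fell in both. Of the 29 members 27 had the same sign in both (93.1%), as did 73.9% of all genes.

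**Figure D1:**
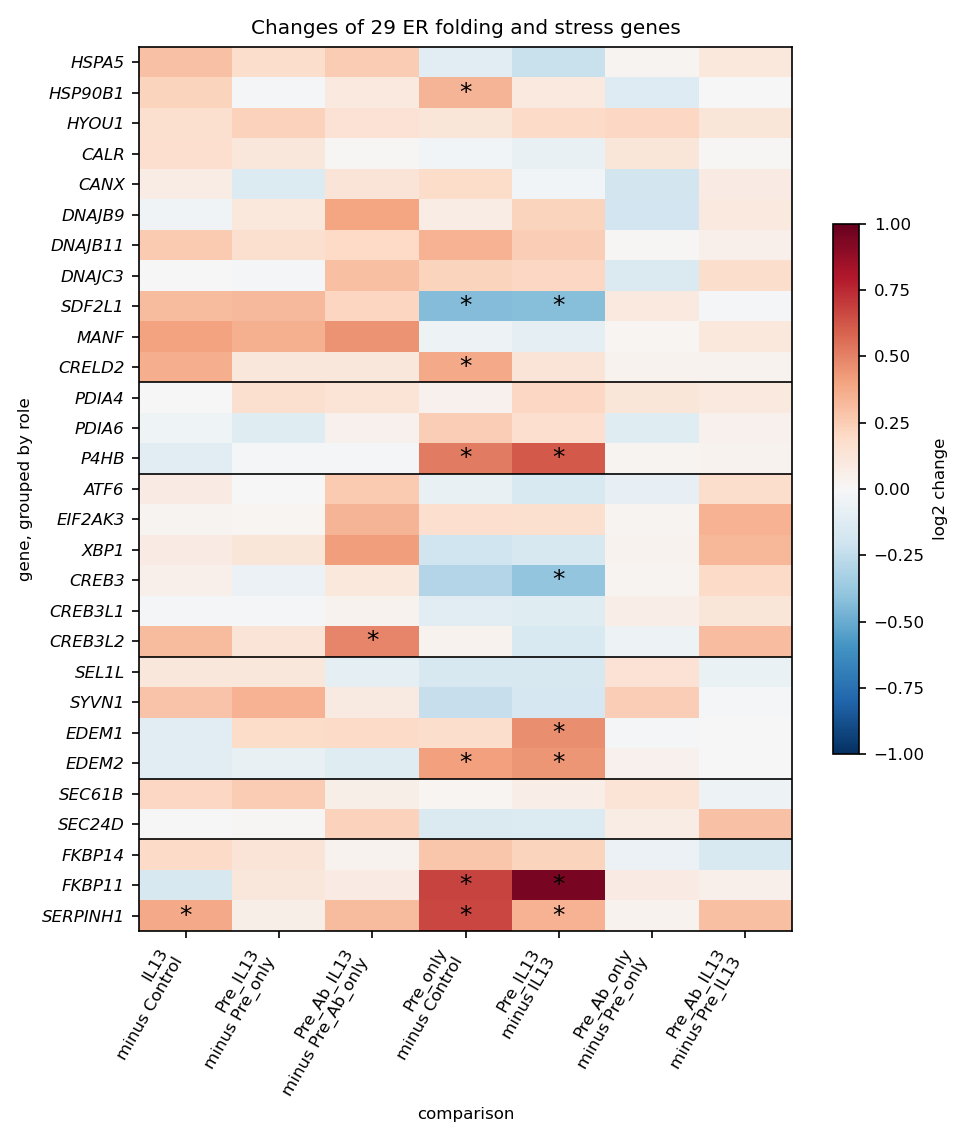
Log2 change (colour, red higher and blue lower) of the 29 tested genes, grouped by role, in the 7 group comparisons, with a star where limma's adjusted p was under 0.05. The stars lie mainly in the Pre_only minus Control and Pre_IL13 minus IL13 columns, and 19 of the 29 genes carry none.

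FKBP11, a prolyl isomerase of the ER in secretory cells, gave the largest change among the members. In Control its level was 9.30 on P6-A, 9.14 on P6-B, 9.15 on P8-A and 9.25 on P8-B. In Pre_only it was 9.58 on P6-A, 10.14 on P6-B and 9.90 on P8-B. Each Pre_only array lay above each Control array, and the change was 0.68 ± 0.14 (SE, limma adjusted p = 3.92e-04), a 1.60-fold rise. With IL-13 present, the level was 8.56, 9.20, 9.24 and 9.20 in IL13 and 10.12, 9.65, 10.17 and 10.07 in Pre_IL13 (P6-A, P6-B, P8-A, P8-B). These groups did not overlap either, although P6-A of IL13 stood lowest by far, and the change was 0.95 ± 0.13 (adjusted p = 8.32e-07), a 1.94-fold rise. Within passage 6 and passage 8 the change was 0.63 and 0.70 without IL-13, and 1.00 and 0.90 with it.

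P4HB, the disulfide isomerase that is also a subunit of collagen prolyl 4-hydroxylase, rose in both settings. Its level was 11.80, 11.73, 11.62 and 11.68 in Control (P6-A, P6-B, P8-A, P8-B) and 12.22, 12.32 and 12.18 in Pre_only (P6-A, P6-B, P8-B). It was 11.60, 11.68, 11.49 and 11.59 in IL13 and 12.21, 12.41, 12.14 and 12.07 in Pre_IL13. All 7 pretreated arrays of these comparisons stood above all 8 arrays without pretreatment, with the lowest of the first at 12.07 and the highest of the second at 11.80. The change was 0.52 ± 0.08 (adjusted p = 9.47e-06, 1.43-fold) without IL-13 and 0.62 ± 0.07 (adjusted p = 1.14e-07, 1.53-fold) with it. PDIA6 and PDIA4, other disulfide isomerases, did not pass the test, with changes of 0.25 (95% interval 0.01 to 0.48) and 0.05 (-0.22 to 0.31) in Pre_only minus Control.

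SERPINH1, the collagen chaperone also called HSP47, rose with pretreatment and differed by passage in every group. In Control it was 10.30, 10.22, 9.49 and 9.79, and in Pre_only 10.86, 10.72 and 10.56. The lowest Pre_only array lay above the highest Control array, and the change was 0.67 ± 0.11 (adjusted p = 1.22e-05, 1.59-fold). In IL13 it was 10.84, 10.59, 10.04 and 9.85, and in Pre_IL13 10.91, 11.00, 10.35 and 10.44. Here the groups overlapped because passage 6 stood above passage 8 in each, and the change was 0.35 ± 0.10 (adjusted p = 0.00786), 0.24 within passage 6 and 0.45 within passage 8. FKBP14, a prolyl isomerase that acts on collagen, changed by 0.28 (95% interval 0.03 to 0.53, adjusted p = 0.102) in Pre_only minus Control and was not called. A second probe of FKBP14, detected on 23 arrays, gave 0.01 ± 0.14 there.

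**Figure D2:**
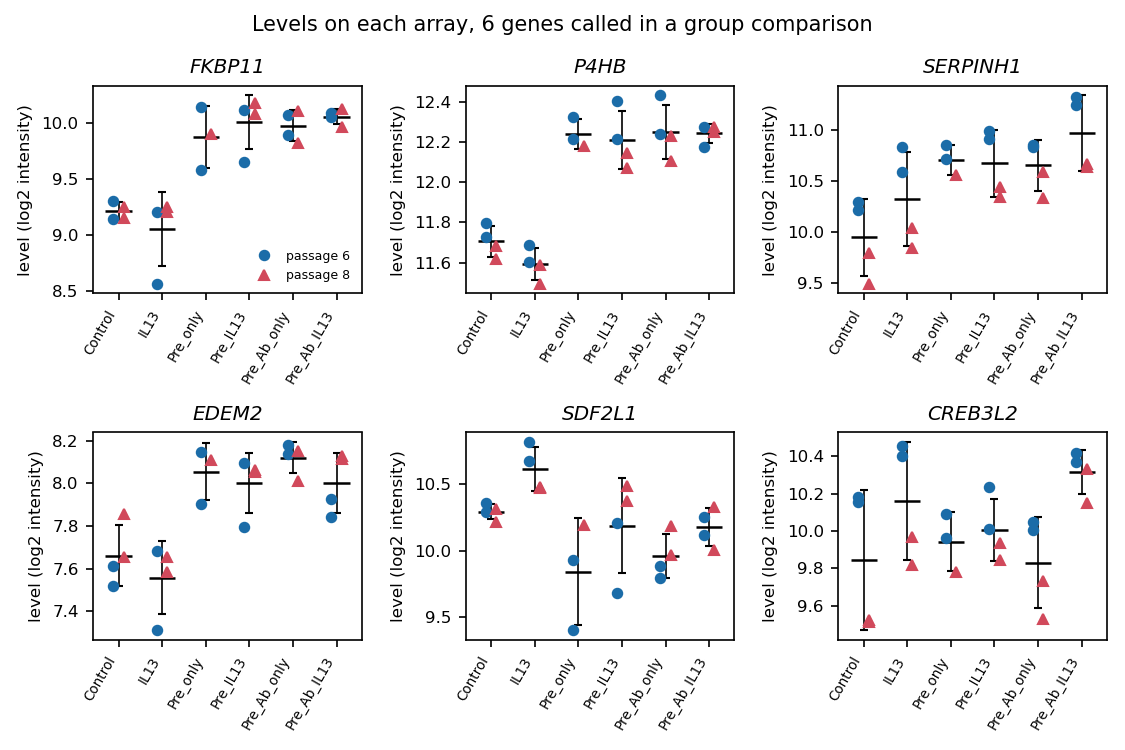
Log2 level on each array of 6 genes called in a group comparison, by group on the x axis. Circles are passage 6 and triangles passage 8, and the bar with whiskers is the group mean and SD; FKBP11 and P4HB are higher in every pretreated group, and SERPINH1 and CREB3L2 are lower in passage 8.

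Among the degradation genes EDEM2, a lectin-like mannosidase protein that marks misfolded glycoproteins, rose by 0.41 ± 0.11 (adjusted p = 0.00576) in Pre_only minus Control and by 0.44 ± 0.10 (adjusted p = 0.00129) in Pre_IL13 minus IL13. Its level ranged from 7.52 to 7.86 in Control and from 7.90 to 8.15 in Pre_only, with no overlap. EDEM1, its relative, rose in Pre_IL13 minus IL13 (0.46 ± 0.12, adjusted p = 0.00506), with 0.28 in passage 6 and 0.65 in passage 8, and the groups overlapped. In Pre_only minus Control it changed by 0.17 (95% interval -0.10 to 0.45). SEL1L and SYVN1, the adaptor and the ubiquitin ligase of the same pathway, did not pass the test in either comparison.

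Of the chaperones, HSP90B1 (GRP94) rose by 0.34 ± 0.09 (adjusted p = 0.00710) and CRELD2, a secreted protein of the stress response, by 0.38 ± 0.11 (adjusted p = 0.0114) in Pre_only minus Control. HSP90B1 ranged from 11.96 to 12.26 in Control and from 12.36 to 12.55 in Pre_only, and CRELD2 from 9.70 to 9.89 and from 10.17 to 10.24. Neither pair of groups overlapped. In Pre_IL13 minus IL13 they changed by 0.10 (95% interval -0.08 to 0.27) and 0.13 (-0.08 to 0.34) and were not called. HSPA5 (BiP), the chaperone that holds the sensors inactive, changed by -0.11 (95% interval -0.33 to 0.12) without IL-13 and by -0.23 (-0.43 to -0.02, adjusted p = 0.0985) with it. The call of CRELD2 ended without the array Pre_only P8-B, and also when A and B were averaged.

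SDF2L1, a partner of the chaperone DNAJB11, fell with pretreatment, with the larger differences in passage 6. In Control it was 10.29, 10.36, 10.22 and 10.31, and in Pre_only 9.40, 9.93 and 10.19. All Pre_only arrays lay below all Control arrays, and it fell by 0.43 on the log2 scale (SE 0.15, adjusted p = 0.0319), with -0.66 in passage 6 and -0.08 in passage 8. In IL13 it was 10.82, 10.68, 10.47 and 10.48, and in Pre_IL13 10.21, 9.68, 10.38 and 10.49. These groups overlapped, and it fell by 0.42 (SE 0.14, adjusted p = 0.0206), with -0.80 in passage 6 and -0.04 in passage 8. The first call ended without Control P6-A, Control P6-B or Pre_only P6-A, and the second without IL13 P6-A, IL13 P6-B or Pre_IL13 P6-B, or without both IL13 arrays of passage 6. Both calls also ended when A and B were averaged, and with array weights. The second call ended with median scaling and in passage 8 alone as well. CREB3, a membrane-bound transcription factor, was 7.07, 7.19, 6.71 and 6.95 in IL13 and 6.40, 6.30, 6.80 and 6.83 in Pre_IL13. It fell by 0.40 in Pre_IL13 minus IL13 (SE 0.15, adjusted p = 0.0443), with -0.78 in passage 6 and -0.02 in passage 8, and the groups overlapped. That call ended under 16 of 38 other settings, 7 of them with a single array left out.

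**Figure D3:**
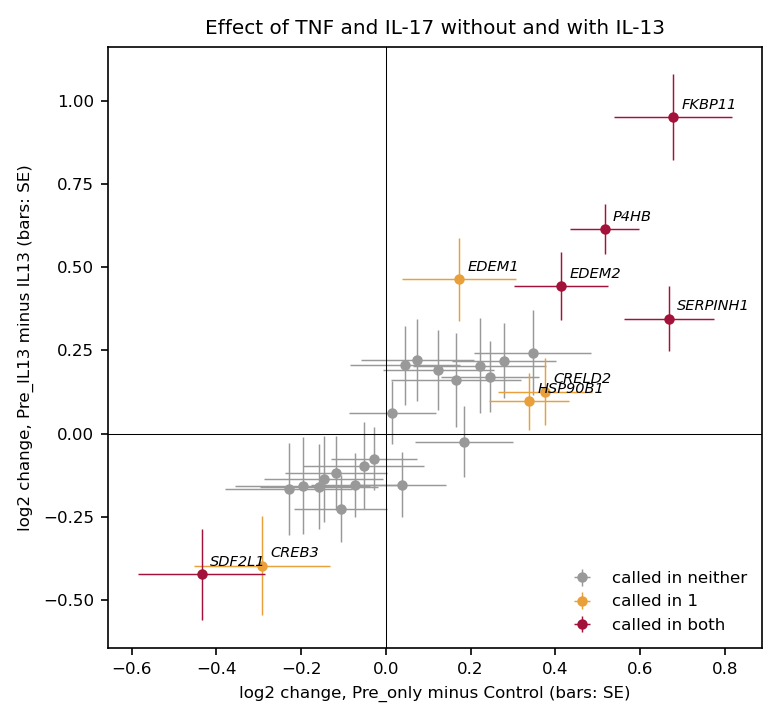
Log2 change of each of the 29 genes with pretreatment in cells without IL-13 (x axis) and with IL-13 (y axis), with SE bars, coloured by whether limma called it in both comparisons, in 1 or in neither. FKBP11, P4HB, SERPINH1 and EDEM2 lie at the upper right and SDF2L1 at the lower left.

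The pretreatment calls depended on how the arrays were scaled. With median scaling in place of quantile normalisation, 2 members (SERPINH1 and SDF2L1) were called in Pre_only minus Control instead of 7. The calls over all genes went from 3223 to 1944 in that comparison. FKBP11 and P4HB kept their direction there. With the same scaling 6 members were called in Pre_IL13 minus IL13, where SDF2L1 and CREB3 were no longer called and DNAJB11 was added. In Pre_IL13 minus IL13, FKBP11 and P4HB kept their call under all 38 other settings, as did SERPINH1 in Pre_only minus Control. Without both IL13 arrays of passage 6, DNAJB11 was added to the 7 of Pre_only minus Control. With the mean of A and B as 1 replicate, 5 members were called in Pre_only minus Control (EDEM2, FKBP11, HSP90B1, P4HB and SERPINH1) and 4 in Pre_IL13 minus IL13 instead of 7 (EDEM1, EDEM2, FKBP11 and P4HB). Calls over all genes in Pre_IL13 minus IL13 then went from 3604 to 2429. Without both IL13 arrays of passage 6 there were 9 in Pre_IL13 minus IL13: SDF2L1 and CREB3 were no longer called, and CRELD2, DNAJB11, HYOU1 and PDIA4 were added.

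Other genes of the same pathways, listed with earlier results of these data known, are given by counts, beside 12% of all genes called higher and 12.8% lower in Pre_only minus Control. Of 16 further folding enzymes 10 rose and 0 fell in Pre_only minus Control, among them ERO1A, which re-oxidises disulfide isomerases (1.31 ± 0.13), PDIA5 (0.99 ± 0.12) and TXNDC12 (0.77 ± 0.14), both thiol oxidoreductases. Of 13 further collagen-modifying genes 6 rose and 0 fell, led by the prolyl hydroxylase subunits P4HA2 (1.55 ± 0.11) and P4HA1 (0.99 ± 0.13) and the lysyl hydroxylase PLOD2 (1.34 ± 0.14). Of 13 translocation genes 5 rose and 1 fell, with the signal peptidase subunits SEC11C at 0.92 ± 0.11 and SPCS3 at -0.86 ± 0.15, and with SSR2 at 0.51 and SEC62 at 0.47. Of 14 further degradation genes 0 rose and 1 fell (UFD1, -0.33), of 13 export genes 1 rose and 0 fell (LMAN1, 0.61), and of 7 genes of sensor processing and its control 0 rose and 1 fell (PTPN1, -0.44). Of 16 genes of the integrated stress response, which EIF2AK3 shares with other kinases of the initiation factor eIF2, 4 rose and 3 fell, with STC2 at 1.14 ± 0.12, ATF3 at 0.78 and ATF5 at 0.77, and with TRIB3 at -0.60 ± 0.14, PPP1R15A at -0.60 and EIF2AK4 at -0.45. In Pre_IL13 minus IL13, where 14% of all genes were called higher and 13.8% lower, the counts higher and lower were 9 and 0 for the folding enzymes (ERO1A 1.17, CNPY2 0.55, PDIA5 0.51) and 6 and 0 for collagen modification (P4HA2 1.24, P4HA1 0.89, P4HA3 0.72). P4HA3 was not detected in Control or IL13, and its rise was at least 1.46-fold and at least 1.42-fold over the array floor. They were 6 and 3 for translocation (SEC62 0.76, SEC11C 0.63, SSR4 0.53, SPCS3 -0.73, SSR3 -0.45, TRAM1 -0.37), 1 and 1 for degradation (ERLEC1 0.41, UFD1 -0.38) and 1 and 0 for export (SURF4 0.38). They were 2 and 5 for the integrated stress response (STC2 1.66, ATF5 0.74, TRIB3 -0.60, ASNS -0.57, and CHAC1 at least 1.17-fold lower) and 2 and 1 for sensor processing (MBTPS1 0.50, BAX 0.40, PTPN1 -0.46).

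**Figure D4:**
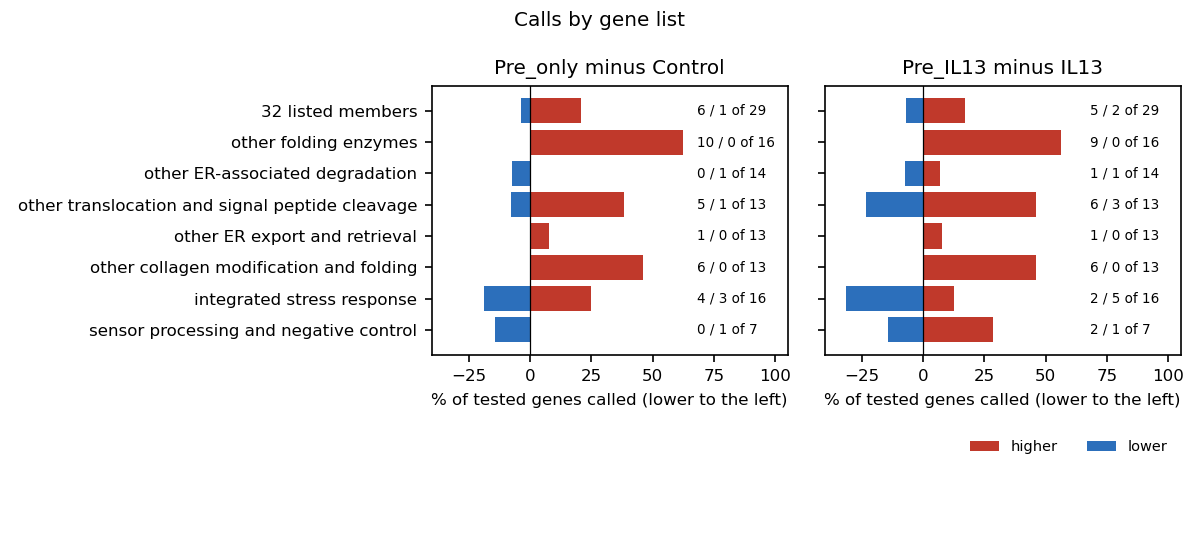
Percent of the tested genes of each list that limma called higher (red, to the right) or lower (blue, to the left) with pretreatment, without IL-13 (left panel) and with it (right panel). Counts higher and lower of the tested genes stand at the right of each panel; the folding enzymes (10 and 9 of 16) have the longest bar to the right in each panel, and neither they nor the collagen-modifying genes have a bar to the left.

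IL-13 alone moved 1 of the ER genes past the threshold. In IL13 minus Control 1 member of 29 was called, and 10 had an unadjusted p under 0.05 (1528 of all 12994 genes did), where 1.87% of all genes were called (1.15% higher and 0.716% lower), and the members' median change was 0.08 against -0.01 over all genes, with 21 of 29 positive. The called gene was SERPINH1 (0.38 ± 0.10, adjusted p = 0.0352), with 0.45 in passage 6 and 0.30 in passage 8, and the groups, whose arrays are given above, overlapped. That call ended under 16 of 38 other settings, among them leaving out any 1 of IL13 P6-A, IL13 P6-B, IL13 P8-A, Control P6-A, Control P6-B and Control P8-A, or both IL13 arrays of passage 6. CRELD2 (0.36, adjusted p = 0.0635), CREB3L2 (0.32, adjusted p = 0.0947) and MANF (0.40, adjusted p = 0.134) followed and were not called. Of the other lists PDIA5 (0.44, adjusted p = 0.0369) and ATF3 (1.30, adjusted p = 2.46e-04) rose with IL-13. Of the cell type markers TEK, VWF and CD14 were lower, at -0.46 each, and their part was not tested.

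After pretreatment IL-13 moved no member past the threshold. In Pre_IL13 minus Pre_only 0 of 29 members were called (4 at an unadjusted p under 0.05), where 0.0308% of all genes were called (0.0308% higher and 0% lower). The lowest p-values belonged to MANF, a secreted ER stress protein (0.36, 95% interval 0.07 to 0.64), and SEC61B, a subunit of the protein-conducting channel (0.25, 95% interval 0.04 to 0.46), with adjusted p of 0.679 and 0.684. The difference between the IL-13 responses with and without pretreatment was tested directly: 0 members were called (1 at an unadjusted p under 0.05), where 0.3% of all genes were called (0.0462% higher and 0.254% lower). The lowest p-values there belonged to SERPINH1 (-0.32, 95% interval -0.62 to -0.03) and HSP90B1 (-0.24, -0.50 to 0.02), whose signs turned with median scaling (0.07 and 0.11, log2).

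With IL-13Ra2 blocked, 1 member rose with IL-13. In Pre_Ab_IL13 minus Pre_Ab_only that was CREB3L2, where 2.24% of all genes were called (1.15% higher and 1.09% lower). At an unadjusted p under 0.05 there were 9 members (1400 of all genes), and the members' median change was 0.14 against 0.00 over all genes, with 26 of 29 positive. CREB3L2 is a membrane-bound transcription factor that drives secretory pathway genes in cartilage cells. Its level was 10.00, 10.05, 9.53 and 9.73 in Pre_Ab_only and 10.42, 10.37, 10.15 and 10.33 in Pre_Ab_IL13 (P6-A, P6-B, P8-A, P8-B). Each array with IL-13 lay above each array without, and the change was 0.49 ± 0.10 (adjusted p = 0.00245), 0.37 in passage 6 and 0.61 in passage 8. The call ended with median scaling, without a passage term, with the mean of A and B, and in passage 6 alone. MANF (0.45, adjusted p = 0.0682) was not called, and without both IL13 arrays of passage 6 the count was 3, with MANF and SERPINH1 added. The count was 2 without IL13 P6-A or Control P8-A and 3 without Pre_Ab_only P8-A.

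The antibody moved no member past the threshold. In Pre_Ab_only minus Pre_only 0 of 29 members were called (0 at an unadjusted p under 0.05), where 0% of all genes were called and 659 genes had an unadjusted p under 0.05. SYVN1 (0.25, 95% interval -0.06 to 0.55) and HYOU1, a chaperone of the large HSP70 class (0.21, -0.06 to 0.48), had the lowest p-values. In Pre_Ab_IL13 minus Pre_IL13 0 members were called (5 at an unadjusted p under 0.05), where 0.924% of all genes were called (0.677% higher and 0.246% lower), with CREB3L2 (0.31, 95% interval 0.11 to 0.51) and SERPINH1 (0.30, 0.10 to 0.50) lowest in p. With array weights SERPINH1 was called there (adjusted p = 0.0470). The difference between the IL-13 response with the antibody and that of cells without pretreatment gave 0 calls among the members (1 at an unadjusted p under 0.05), where 0.0693% of all genes were called (0.0462% higher and 0.0231% lower). DNAJB9, a co-chaperone (0.43, 95% interval 0.07 to 0.79), and EDEM1 (0.30, -0.06 to 0.66) had the lowest p-values.

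Several ER genes were lower in passage 8 than in passage 6, among them SERPINH1, HYOU1 and CREB3L2, and for 8 of the 29 the passage difference itself differed with pretreatment. Over all groups, passage 8 minus passage 6, 1 member rose and 5 fell, where 29.4% of all genes were called (16.6% higher and 12.8% lower). The members' share called was below that of all genes, and their share called lower was near it. SERPINH1 fell by 0.55, HYOU1 by 0.46, CREB3L2 by 0.38, PDIA6 by 0.21 and SEC24D, a coat subunit of ER export vesicles, by 0.20, while the sensor ATF6 rose by 0.20. XBP1 was not called on its chosen probe (-0.18), while its second probe gave -0.39 ± 0.07 (limma adjusted p over probes = 2.27e-04). The call of SEC24D ended under 20 of 35 other settings. With median scaling CREB3L2, PDIA6 and SEC24D were no longer called, and SDF2L1 was. SERPINH1 ranged from 10.22 to 10.84 in passage 6 and from 9.49 to 10.04 in passage 8 without pretreatment, and from 10.72 to 11.33 and from 10.34 to 10.67 with it, so the passages did not overlap in either. In Control and IL13 alone, a comparison added after the data were seen, 0 members rose and 11 fell, where 19.4% of all genes were called (10.5% higher and 8.88% lower). They were HYOU1 (-0.70), SERPINH1 (-0.69), CREB3L2 (-0.59), XBP1 (-0.59), MANF (-0.58), DNAJB11 (-0.56), SYVN1 (-0.54), CRELD2 (-0.40), HSPA5 (-0.36), DNAJB9 (-0.35) and SEC24D (-0.35). In the 4 pretreated groups 3 rose (ATF6, DNAJC3 and SDF2L1, at 0.29, 0.28 and 0.29) and 4 fell (SERPINH1 -0.47, HYOU1 -0.32, CREB3L2 -0.26, PDIA6 -0.23), where 21.2% of all genes were called (11.9% higher and 9.32% lower). With median scaling 2 members (HYOU1 and SERPINH1) were called lower without pretreatment instead of 11, and the calls over all genes went from 2515 to 1125. Without both IL13 arrays of passage 6 there were 8, with CRELD2, HSPA5 and SYVN1 no longer called. In the passage difference over all groups, EIF2AK3 was added without those arrays, and also with the replicate block.

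The pretreatment-by-passage term, which tests that difference, was positive and called for 8 members and negative and called for 0, where 7.48% of all genes were called (4.04% higher and 3.44% lower). The members' median was 0.23, against -0.01 over all genes. DNAJB11, a co-chaperone of HSPA5, had the largest term, 0.66 ± 0.10 (adjusted p = 3.13e-05). In cells without pretreatment it was 11.00, 11.09, 11.53 and 11.07 in passage 6 and 10.49, 10.45, 10.72 and 10.77 in passage 8 (Control A and B, IL13 A and B). All passage 8 arrays there lay below all passage 6 arrays, while in pretreated cells the passage difference was 0.10 (95% interval -0.02 to 0.23).

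MANF followed with 0.62 ± 0.11 (adjusted p = 3.74e-04). Without pretreatment it was 10.96, 11.08, 11.31 and 11.46 in passage 6 and 10.24, 10.57, 10.77 and 10.91 in passage 8, in the same order. XBP1, the transcription factor spliced by ERN1, had a term of 0.62 ± 0.14 (adjusted p = 0.00323), with 10.46, 10.60, 10.29 and 10.76 in passage 6 and 9.90, 9.81, 10.13 and 9.94 in passage 8. Neither gene's passages overlapped, and in pretreated cells the passage differences were 0.04 (95% interval -0.10 to 0.18) for MANF and 0.04 (-0.13 to 0.20) for XBP1. Which forms of XBP1 mRNA its probes report was not examined, and splicing was not measured here.

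The other called terms were SYVN1 (0.59 ± 0.13, adjusted p = 0.00327), DNAJC3, which restrains EIF2AK3 (0.55 ± 0.15, adjusted p = 0.0168), CRELD2 (0.39 ± 0.10, adjusted p = 0.0169), HSPA5 (0.36 ± 0.11, adjusted p = 0.0341) and CREB3L2 (0.34 ± 0.10, adjusted p = 0.0400). HSPA5 was 9.63, 9.73, 10.06 and 9.90 in passage 6 and 9.35, 9.30, 9.58 and 9.65 in passage 8 without pretreatment, where it fell by 0.36 between the passages. In pretreated cells its difference was 0.00 (95% interval -0.13 to 0.13). CREB3L2 fell in both settings, by 0.59 without pretreatment and by 0.26 with it. SDF2L1 (0.45, adjusted p = 0.0540), DNAJB9 (0.41, adjusted p = 0.0567) and HYOU1 (0.38, adjusted p = 0.0755) were positive and not called. For P4HB (0.00, 95% interval -0.19 to 0.19) and FKBP11 (-0.09, -0.41 to 0.22), no such term was called.

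**Figure D5:**
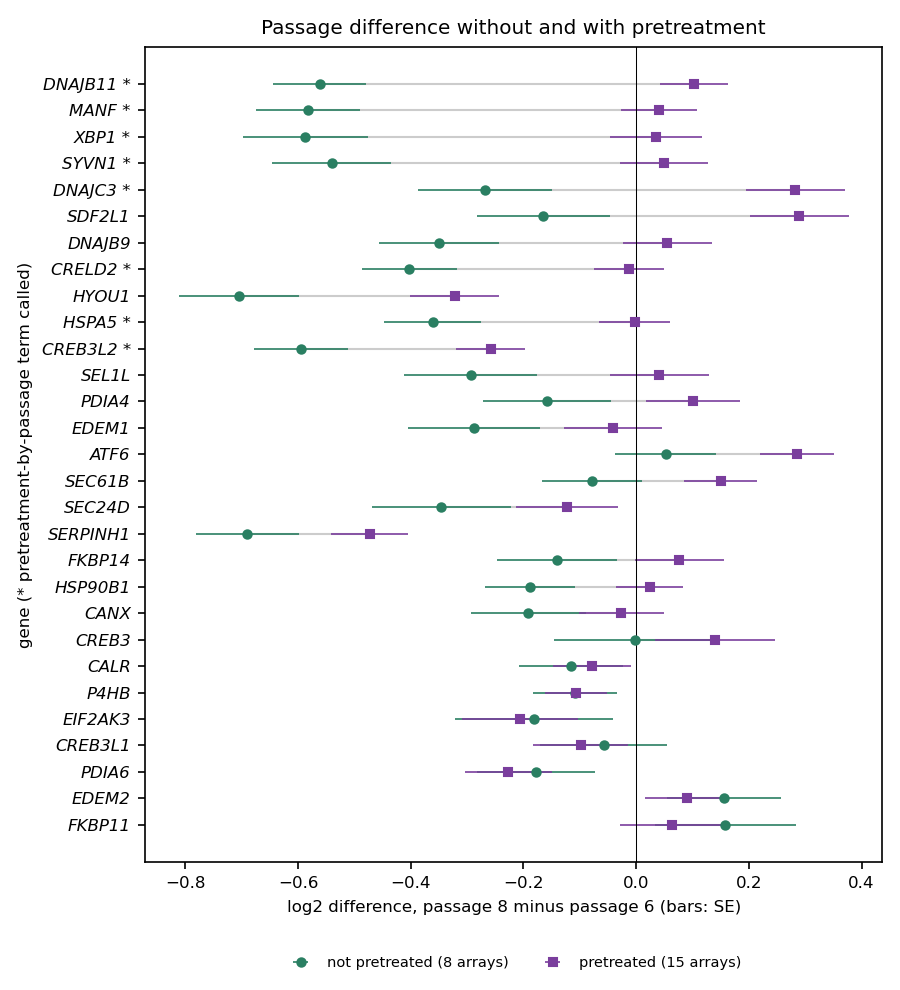
Log2 difference between passage 8 and passage 6 for each of the 29 genes, with SE bars, in cells without pretreatment (circles, 8 arrays) and pretreated cells (squares, 15 arrays), sorted by the pretreatment-by-passage term, with a star where limma called it. For DNAJB11, MANF, XBP1 and SYVN1 the circles lie between -0.59 and -0.54 and the squares between 0.04 and 0.10.

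The 8 calls were not stable to every setting. With median scaling 0 of the 8 were called, with the mean of A and B 4 (DNAJB11, MANF, SYVN1 and XBP1), and in the groups without IL-13 2 (DNAJB11 and XBP1). Over all genes the 972 calls also fell, to 201, 596 and 361 under these settings. Without both IL13 arrays of passage 6, 3 of the 8 were called (DNAJB11, MANF and XBP1), DNAJB9 was added, and 534 of all genes were called. Without Control P6-B or without IL13 P8-A 5 were called. The call of HSPA5 ended under 17 of 36 other settings and that of CREB3L2 under 21. The second probe of XBP1 gave 0.45 ± 0.13 and that of HYOU1 0.47 ± 0.15, while that of SYVN1 gave 0.12 ± 0.19 and that of CANX, a lectin chaperone whose chosen probe gave 0.16, gave 0.47 ± 0.13. Smooth muscle markers moved with passage too: all 3 were lower in passage 8 without pretreatment (MYH11 -1.67, CNN1 -1.11, LMOD1 -0.64), and for 2 of 3 (CNN1 0.73, MYH11 0.62) the term was positive and called. Of 10 fibroblast markers 6 were lower in passage 8 without pretreatment, from -0.75 for LUM to -0.35 for COL1A2, while TEK was lower (-0.54) and CD68 higher (0.49). The term was also called for COL1A1 (0.37), PDGFRA (-0.42), CD68 (-0.70) and MUC1 (-0.75). The part of these markers in the result was not tested.

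In the lists of other pathway genes the same term was called positive for 4 of 16 integrated stress response genes, beside 4.04% of all genes, with ATF3, a stress transcription factor, at 1.13 ± 0.16, ASNS, asparagine synthetase, at 0.77 ± 0.12 and TRIB3 at 0.64 ± 0.11. Also called positive were 3 of 13 translocation genes, SSR3 (0.66 ± 0.17), SPCS2 (0.55 ± 0.11) and SPCS3 (0.48 ± 0.15), 1 of 14 degradation genes, SELENOS (0.55 ± 0.10), and 2 of 13 collagen-modifying genes, PLOD2 (0.58 ± 0.12) and P3H1 (0.54 ± 0.13). The term was called for no gene of the further folding enzymes, the export genes or the genes of sensor processing. Of the 8 tested members with an ERSE or ERSE-II in their window, HSPA5, CRELD2 and XBP1 had a called term, and HSP90B1, CALR, CANX, HYOU1 and SDF2L1 did not. DNAJB11, MANF, SYVN1, DNAJC3 and CREB3L2 had a called term and neither element in that window. The other tested members with a window had neither element and no called term: DNAJB9, PDIA4, PDIA6, P4HB, ATF6, EIF2AK3, CREB3, CREB3L1, SEL1L, EDEM1, EDEM2, SEC61B, FKBP11 and SERPINH1.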

How the data were processed

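RNA of CCL-75 cells was hybridised to Illumina bead arrays. Per the file headers, the deposited scanner table holds a mean bead intensity and a detection p-value per probe, and the per-array files add the bead standard error and bead number. Per the submitters' processing notes, GenomeStudio 2011.1 was used. The authors' deposited table of normalised values is on a log2 scale, and how it was made is not given in the sources used here. It served as an alternative.

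Intensities were background-corrected by detection p-value and quantile normalised (neqc, offset 16) with limma 3.58.1 in R 4.3.3. Of 47323 probes, 14 lacked a value in at least 1 array and were dropped. A gene was represented by its brightest probe among those with detection p under 0.05 on at least 3 arrays, named through the platform's annotation and its Entrez ID (RefSeq, GRCh38.p14). A linear model with a term per group and passage was fitted to all 23 arrays (16 residual degrees of freedom), with a variance trend and Benjamini-Hochberg adjustment over 12994 genes. The pretreatment-by-passage term came from a second fit. The first fit was tested on simulated data for Pre_only minus Control only, and the second fit was not. The simulated noise was independent between arrays, so that test cannot show what technical replicates would do to the p-values.

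Every called member is named, and where none was called the 2 lowest in p. Of other lists up to 3 called genes per direction were named. Probes of CANX, HYOU1, FKBP14, SYVN1 and XBP1 were compared. The members and lists were chosen with earlier results of these data known. The labels call A and B technical replicates and the design text calls them independent experiments, so p-values measure the spread between these arrays, which may be technical. The number of arrays limits the precision. Alternatives in background correction, normalisation, filter, probe choice, passage term, replicate unit, weights and arrays included are reported at the end.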

Additional observations from a re-analysis of the deposited data

Results flagged for a closer look

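In 7 of 145 groups of 4 arrays, 1 array stood far from the other 3 for a member gene, measured by its gap over the group's range against Dixon's critical value. Chance gives about 1 in 20 such groups. CALR was 9.89 on Pre_IL13 P8-B and 10.06 to 10.10 on the others. CREB3L1 was 4.36 on IL13 P8-B and 4.79 to 4.86 on the others. SEL1L was 5.05 on Pre_Ab_IL13 P6-A and 5.49 to 5.54 on the others. EDEM2 was 7.79 on Pre_IL13 P6-A and 8.05 to 8.10 on the others. SEC24D was 8.09 on IL13 P6-B and 7.86 to 7.89 on the others. FKBP14 was 9.48 on Pre_Ab_only P8-B and 9.31 to 9.32 on the others. FKBP11 was 8.56 on IL13 P6-A and 9.20 to 9.24 on the others.

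For 8 of 29 members the effect of pretreatment differed between passage 8 and passage 6 by the limma term for that difference: DNAJB11 0.66, MANF 0.62, XBP1 0.62, SYVN1 0.59, DNAJC3 0.55, CRELD2 0.39, HSPA5 0.36 and CREB3L2 0.34. The term was called for 7.48% of all genes. The 8 calls fell to 0 with median scaling, to 4 with the mean of A and B and to 2 in the groups without IL-13. Passage and beadchip cannot be told apart in these differences.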

How the results depend on the processing

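Counts of called members moved by more than 1.5 times as follows. In IL13 minus Control the 1 call became 0 with median scaling, without a passage term, with the replicate block, with the mean of A and B, with a random block of group and passage, with array weights, without the intensity trend, in passage 8 alone and without both IL13 arrays of passage 6. Calls over all genes under these settings ran from 55 (mean of A and B) to 256 (no intensity trend), against 243. In Pre_only minus Control 7 became 2 with median scaling, and in Pre_IL13 minus IL13 7 became 4 with the mean of A and B. Calls over all genes went from 3223 to 1944 in the first and from 3604 to 2429 in the second. In Pre_Ab_IL13 minus Pre_Ab_only 1 became 0 with median scaling, without a passage term, with the mean of A and B and in passage 6 alone, 5 with array weights, 2 in passage 8 alone and 3 without both IL13 arrays of passage 6. Over all genes 291 calls became 160, 149, 75, 123, 622, 325 and 435, in the same order. In Pre_Ab_IL13 minus Pre_IL13 0 became 1 with array weights, and over all genes 120 became 255. For pretreatment by passage 8 became 0 with median scaling, 4 with the mean of A and B, 4 without both IL13 arrays of passage 6 and 2 in the groups without IL-13. Over all genes 972 calls became 201, 596, 534 and 361, in the same order. The passage difference moved from 11 to 2 without pretreatment with median scaling, and with pretreatment from 7 to 4 with median scaling and to 4 in the groups without IL-13. Over all genes these calls went from 2515 to 1125 without pretreatment, and with it from 2761 to 1694 and to 1081. The cause was not tested.

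Leaving out 1 array at a time gave 0 to 2 calls in IL13 minus Control, 1 to 3 in Pre_Ab_IL13 minus Pre_Ab_only and 5 to 9 for pretreatment by passage. In the difference between the IL-13 responses with and without pretreatment, median scaling turned SERPINH1 to 0.0708 and HSP90B1 to 0.112 from negative values. With the replicate block 7 members were called in Pre_only minus Control and 6 in Pre_IL13 minus IL13. Deviations of same-lettered arrays correlated from -0.26 to 0.16 in passage 6 (15 pairs) and from -0.22 to 0.34 in passage 8 (10 pairs). Such correlations cannot decide whether same-lettered arrays were run as a pair, which the labels do not state. The settings without both IL13 arrays of passage 6 and with the groups without IL-13, and the 2 passage comparisons split by pretreatment, were chosen after seeing the data. The number of arrays limits all counts.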
